A study of Homo sapiens with 21 samples.

Results

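The cytosolic ribosomal protein genes encode the proteins that, with ribosomal RNA, form the cytoplasmic ribosome. They were taken from the deposited gene table by symbol: RPL or RPS followed by a number, with the endings A, X, AL, L or L1 allowed, together with RPLP0, RPLP1, RPLP2 and RPSA. The rule found 85 of 26475 genes and used no measured value. Of these, 83 had enough counts to be tested, among 15062 genes tested in all. The tested members were 46 genes of the large subunit, 31 genes of the small subunit and 6 like-named paralogs, which are close relatives of a standard ribosomal protein (RPL22L1, RPS27L, RPL26L1, RPL36AL, RPL39L and RPL7L1). The other members, RPL3L, a form known from heart and skeletal muscle, and RPL10L, a form known from testis, reached at most 0.0412 and 0.0277 CPM in any library and were not tested. CPM are counts scaled to a common library total.

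Ribosomal protein genes are transcribed at high rates in growing cells, and their messages are kept in near-equal proportion because each standard ribosome carries single copies of most proteins. Many of their messages begin with a C followed by a run of C and T, the terminal oligopyrimidine tract, through which the mTOR pathway and LARP1 set how strongly they are translated and how stable they are. In tumour cells, transcription of ribosomal protein genes is raised by MYC, and free RPL5 and RPL11 bind MDM2 and thereby stabilise p53 when ribosome assembly is disturbed.

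The cells were SK-MEL-147, an established human melanoma cell line, and RNA was selected by its poly-A tail before sequencing. There were 7 groups of 3 libraries: cells given TP-472, which binds the bromodomains of BRD9 and BRD7, GSK-591, an inhibitor of the arginine methyltransferase PRMT5, GSK-484, an inhibitor of the arginine deiminase PADI4, MS023, an inhibitor of the type I arginine methyltransferases, JQ-1, which binds the bromodomains of the BET proteins, or UNC0642, an inhibitor of the lysine methyltransferases EHMT1 and EHMT2, and untreated cells. The labels used here name no genetic change, dose, exposure time or vehicle, so that any effect of a solvent cannot be told apart from that of a compound. The series calls its replicates biological without saying that they were grown separately, and p-values then measure the spread between these libraries, which may be technical.

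Levels are given as CPM after TMM scaling, which sets libraries on a scale under the assumption that most genes do not change, as mean ± SD with n = 3. Differences are log2 fold changes of compound over untreated cells with their standard error. A gene is called where its Benjamini-Hochberg adjusted p, over the 15062 genes tested, was under 0.05 in the edgeR quasi-likelihood test. All comparisons with untreated cells share the same 3 untreated libraries.

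The starts of the genes on which the results turn are shown first, because the oligopyrimidine start is the sequence feature that most of the members share. Each line covers 30 bases upstream and 20 transcribed bases of the RefSeq start on GRCh38.p14, 5′ to 3′ on the gene's own strand. Capitals mark the first transcribed base and any unbroken run of C and T that begins there. RPL28, RPS15 and RPL13 rose most with JQ-1, and the others are paralogs beside their partners. The starts are RPL28 at chr19:55385902-55385951 (+), RPS15 at chr19:1438366-1438415 (+), RPL13 at chr16:89560652-89560701 (+), RPL22 at chr1:6199576-6199625 (−), RPL22L1 at chr3:170870176-170870225 (−), RPS27 at chr1:153990732-153990781 (+), RPS27L at chr15:63157458-63157507 (−), RPL26 at chr17:8383174-8383223 (−), RPL26L1 at chr5:172958699-172958748 (+), RPL36A at chrX:101390981-101391030 (+) and RPL36AL at chr14:49620607-49620656 (−). Where RefSeq gives more than 1 start, as for RPL13 and RPL26L1, the start with the longest run is shown.
RPL28: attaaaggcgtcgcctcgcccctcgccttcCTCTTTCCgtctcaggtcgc
RPS15: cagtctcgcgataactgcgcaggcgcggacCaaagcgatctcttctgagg
RPL13: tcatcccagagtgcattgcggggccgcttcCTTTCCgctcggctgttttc
RPL22: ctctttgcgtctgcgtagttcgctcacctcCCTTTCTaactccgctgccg
RPL22L1: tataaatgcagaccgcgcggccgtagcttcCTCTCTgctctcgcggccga
RPS27: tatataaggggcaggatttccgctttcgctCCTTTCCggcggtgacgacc
RPS27L: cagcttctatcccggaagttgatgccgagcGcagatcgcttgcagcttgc
RPL26: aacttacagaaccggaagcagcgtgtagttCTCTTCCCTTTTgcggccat
RPL26L1: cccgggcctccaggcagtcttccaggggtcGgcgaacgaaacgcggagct
RPL36A: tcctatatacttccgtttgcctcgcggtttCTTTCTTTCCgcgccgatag
RPL36AL: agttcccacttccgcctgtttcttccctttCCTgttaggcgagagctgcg

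An oligopyrimidine start, counted as a C at the first transcribed base and at least 5 C or T in an unbroken run, was present at a RefSeq start of 47 of the 68 members that have a promoter sequence (69.1%). Among all 27305 genes with a promoter sequence, 1404 (5.14%) had such a start. It was found for 28 of 38 large subunit genes (73.7%) and 18 of 24 small subunit genes (75.0%), but for 1 of the 6 like-named paralogs, RPL22L1. In the lines shown, RPL22L1 carries a run of 6 bases and its partner RPL22 a run of 7, whereas RPS27L and RPL26L1 begin with a G and RPL36AL has a run of 3. RPS15 begins with a C that no run follows. Within 250 bases upstream to 50 downstream of the starts, CCGGAA, the core of the sites bound by ETS factors, lay on either strand in 39 of the 68 members (57.4%) and in 20.1% of all genes. CACGTG, the E-box bound by MYC and related factors, lay in 5 members (7.35%) and in 8.77% of all genes. TTCCGG, the reverse complement of the ETS core, can overlap the end of a pyrimidine run, as in RPS27. A match is a string of letters and not a measured site.

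Levels between genes were compared per kilobase of the median annotated transcript length, as an average over all 21 libraries. RPS18, a protein of the small subunit head, RPL7A, a large subunit protein, and RPL41, the smallest of the ribosomal proteins, were highest at 3804, 3472 and 2845 CPM per kilobase. RPL7L1, RPL39L and RPL22L1 were the lowest of the tested members at 10.4, 18.9 and 56.8 CPM per kilobase. The median of the 83 tested members was not reached by any paralog, and the annotated length limits such values where long transcript models are listed for a gene. RSEM gave 25 members fractional counts in at least 1 library, since it divides reads that match several genes, and for RPLP0, RPL10, RPS10, RPL39 and RPL39L this held in all 21 libraries. Their levels depend on that division.

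Summed expected counts were 20978182 to 78776788 per library, and the common coefficient of variation between replicates was 5.09% over the genes tested. The cells carried SOX10, a neural crest and melanocyte factor, at 349 to 603 CPM. AXL, a marker of undifferentiated melanoma, was at 1770 to 2065 CPM. Among the other melanocytic markers, MITF was at 9.24 to 19.01 CPM and S100B reached at most 0.249 CPM. The pigment genes PMEL, MLANA, TYR and DCT stayed under 0.45 CPM. The pigment genes were thus low, whereas SOX10 and MITF were present. PTPRC, CD3E, KRT5 and CDH5, markers of leukocytes, keratinocytes and endothelium, stayed under 0.11 CPM. KRT14, a keratinocyte keratin, was at 0.247 to 0.708 CPM and PECAM1, an endothelial marker, at up to 0.441 CPM. The fibroblast markers PDGFRB and LUM were at 0.653 to 5.03 and 0.882 to 5.94 CPM. Log2 CPM was taken as each gene's deviation from its mean over all 21 libraries, and its trend with transcript GC content differed between groups. Slopes are therefore relative to the average of the libraries and do not show whether a library has a GC trend of its own. Per 10 points of GC they averaged 0.0219 in TP-472, 0.0325 in GSK-591, 0.0081 in GSK-484, 0.077 in MS023 and 0.0151 in JQ-1 libraries. In UNC0642 libraries the average was −0.0227, against −0.132 in untreated libraries. Untreated replicate 1 stood apart with the lowest slope, −0.181. For that reason each comparison is also given after the trend with GC content was taken out library by library, and with the other treated groups as the comparator in place of untreated cells (for JQ-1 all 5 other compounds, for the rest those other than JQ-1). The part of the GC trend in the differences against untreated cells was not tested beyond these fits.

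Together the 85 genes took 9.19 ± 0.39% of the counts in JQ-1 libraries, 8.95 ± 0.298% with TP-472, 8.72 ± 0.262% with MS023, 8.56 ± 0.348% with GSK-591, 8.26 ± 0.338% with GSK-484, 7.90 ± 0.375% with UNC0642 and 8.25 ± 0.766% in untreated cells (SD, n = 3 each). The untreated libraries held 7.41, 8.44 and 8.91%, and replicate 1 was the lowest of all 21. JQ-1 libraries held 9.59, 8.81 and 9.17%, of which 1 lay below the highest untreated library, so the groups overlapped. In bulk RNA a change in this share and a change in the RNA of all other genes cannot be told apart, nor can fewer cells from less RNA per cell.

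**Figure D1:**
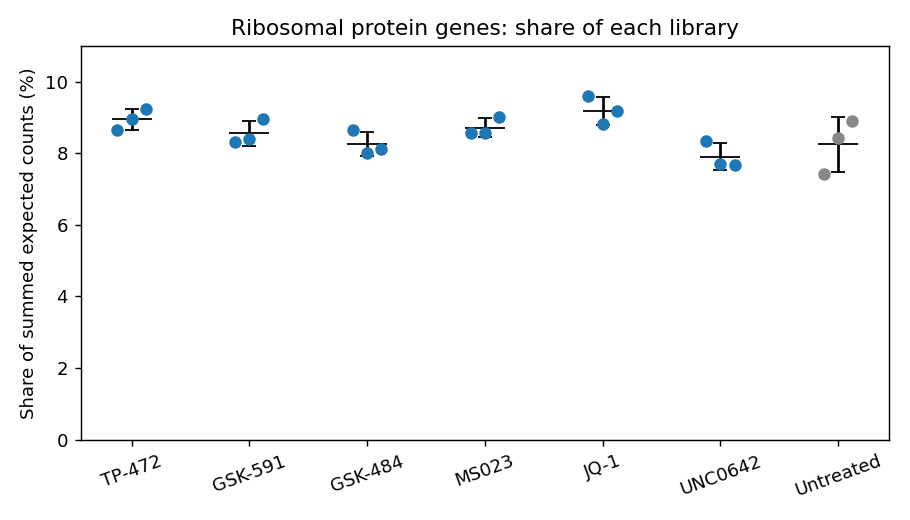
Share of the summed expected counts (%) held by the ribosomal protein genes in each library (points), with the group mean (horizontal bar) and SD (whiskers, n = 3). The 21 libraries lie between 7.41% and 9.59%, and untreated cells have the widest spread, with an SD of 0.766 percentage points.

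JQ-1 raised more ribosomal protein genes than any other compound in the comparisons with untreated cells. Of the 83 tested members 53 rose, 3 fell and 27 were not called, with a median log2 fold change of 0.22. Over all genes tested, 35.7% were called higher and 37.6% lower with JQ-1, with a median of −0.01. In the large subunit 32 of 46 genes rose and 0 fell, with a median of 0.23, and in the small subunit 21 of 31 rose and 0 fell, with a median of 0.25 (edgeR quasi-likelihood test, in which the other 14 and 10 were not called). Of the 6 like-named paralogs 0 rose and 3 fell, with a median of −0.16. With the GC trend removed 0 rose and 2 fell, beside 37.4% and 36.8% of all genes. With the other compounds as comparator besides, 0 rose and 1 fell, beside 40.2% and 38.7%. With the length trend removed too, 0 rose and 3 fell, both against untreated cells and against the other compounds. Of all genes 37.4% and 39.2% were then called lower. The falls were thus below the share of all genes in some fits and above it in others, and a difference was not tested. For 46 members all 3 JQ-1 libraries lay above all 3 untreated libraries, and for 3 they lay below; among all genes the shares were 36.6% and 38%.

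With the GC trend removed, JQ-1 raised 57 and lowered 2 members, beside 37.4% and 36.8% of all genes, and with the trend in transcript length removed too it raised 56 and lowered 6, beside 37.9% and 37.4%. Against the other compounds it raised 63 and lowered 4, beside 38.3% and 39.5%. Those counts were 64 and 2 with the GC trend removed, beside 40.2% and 38.7%, and 62 and 5 with the length trend removed too, beside 40.7% and 39.2%; the last setting was chosen for all compounds after the data were seen. The rise was called for 50 genes against untreated cells, with the GC trend removed, and with both the trend removed and the other compounds as comparator, which are the 3 fits meant below. When libraries were scaled by their total count alone, the median of all genes with JQ-1 moved to −0.149 and that of the members to 0.079, and 32 members were called higher and 7 lower, so the number of rises depends on the scale while the members stayed above the median of all genes. Leaving out untreated replicate 1 left 44 rises.

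**Figure D2:**
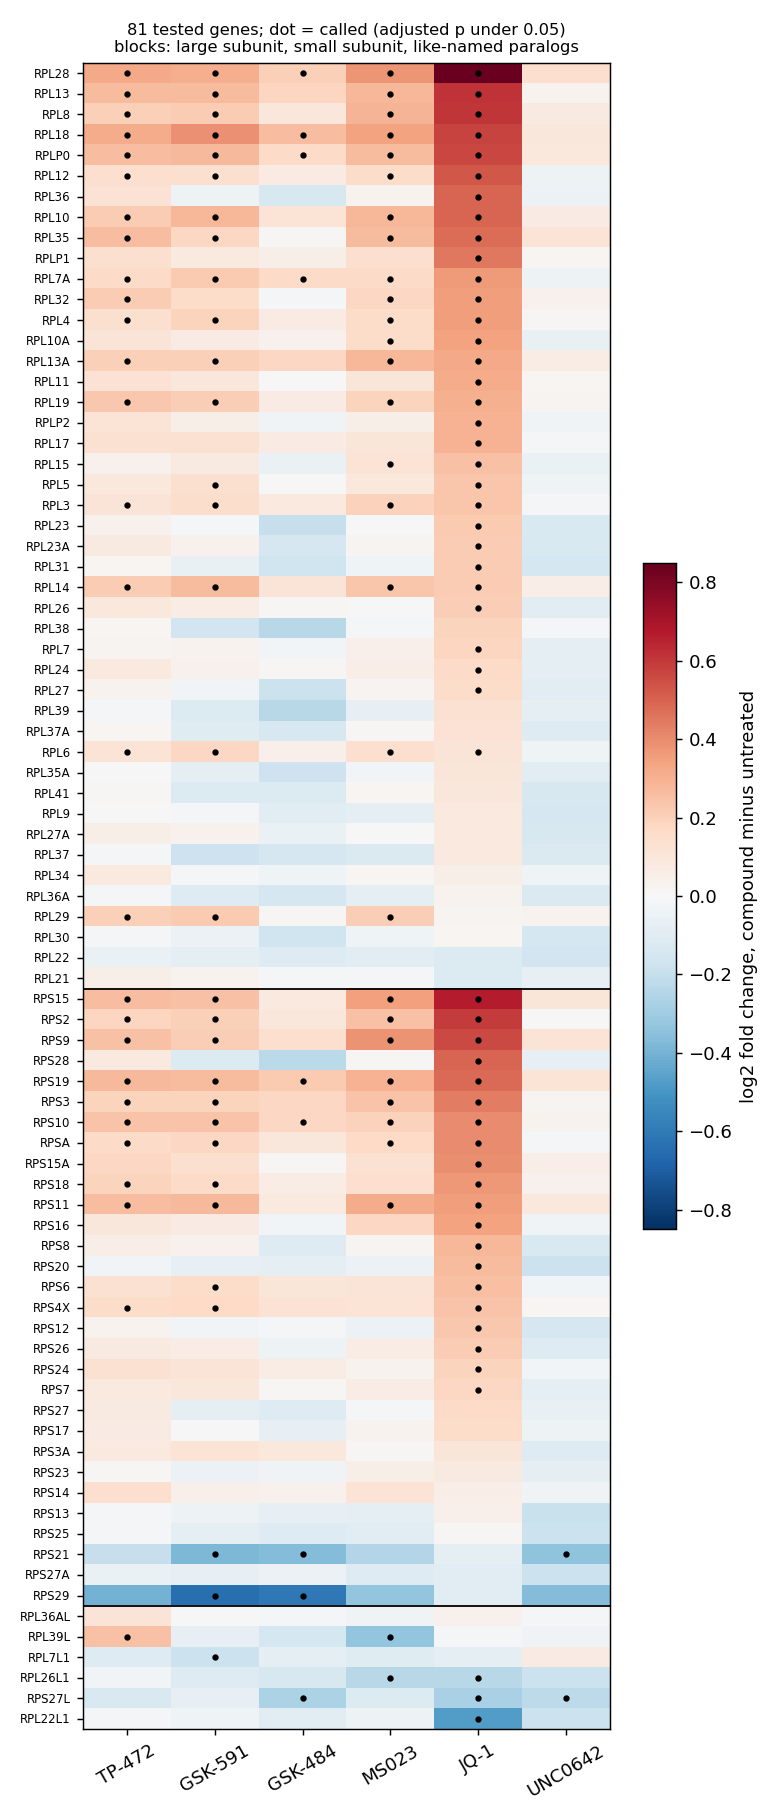
Log2 fold change of 81 of the 83 tested genes (rows) for each compound over untreated cells (columns), red for higher and blue for lower, with a dot where the edgeR call passed. Among the genes drawn the JQ-1 column holds 51 called rises and 3 falls, and the UNC0642 column holds 2 called falls and 0 rises.

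RPL28, a large subunit protein, changed most with JQ-1. It stood at 1440, 1259 and 1398 CPM in JQ-1 libraries, against 693, 814 and 784 CPM in untreated libraries, and the 15 libraries of the other compounds lay between 806 and 1004 CPM. All JQ-1 libraries were thus above every other library. The log2 fold change was 0.84 ± 0.064 (SE, adjusted p = 3.98e-11, edgeR), and 0.73 with the GC trend removed.

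RPS15, a protein of the small subunit head that reaches towards the decoding site, was at 724, 678 and 714 CPM with JQ-1, against 414, 462 and 457 CPM in untreated cells. With the other compounds it ranged from 443 to 594 CPM, so that JQ-1 was again apart from all other libraries. It rose by 0.67 ± 0.049 on the log2 scale (SE, adjusted p = 2.48e-11, edgeR), or 0.47 with the GC trend removed. RPL13, a large subunit protein mutated in a skeletal dysplasia, was at 1471, 1404 and 1464 CPM with JQ-1, against 845, 970 and 1020 CPM in untreated cells. Its log2 fold change was 0.61 ± 0.073 (SE, adjusted p = 8.86e-08, edgeR). RPL8, which lies at the peptidyl transferase centre, was at 1725, 1645 and 1746 CPM, against 1016, 1163 and 1170 CPM, with a log2 fold change of 0.61 ± 0.049 (SE, adjusted p = 1.21e-10, edgeR). For both genes every JQ-1 library exceeded every library of the other compounds, whose highest values were 1253 CPM for RPL13 and 1397 CPM for RPL8.

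The size of the JQ-1 rise went with the GC content of the transcripts. Of 40 subunit genes at or above the members' median GC of 49.74%, 33 rose, with a median log2 fold change of 0.39, and of 37 below it 20 rose, with a median of 0.16. Across the 83 members Spearman's rho between GC content and the JQ-1 fold change was 0.679, and it was 0.445 after the GC trend was removed; over 14108 genes it was 0.185. With the other compounds, against the same untreated libraries, the members' rho was similar, at 0.478 (GSK-484) to 0.684 (MS023). Over all genes it was 0.541 (UNC0642) to 0.673 (MS023) with those compounds, so there the members resembled all genes. Medians of all genes by GC bin ran from −0.27 to 0.40 with JQ-1 and from −0.17 to 0.31 with TP-472. The lower all-gene rho with JQ-1 therefore does not show a flatter trend, nor that the link with GC content was particular to the members. The members' rho was −0.126 (TP-472) to −0.013 (GSK-591) with the other compounds after the GC trend was removed. Members share libraries and base composition, so these are descriptions across genes. After removal of the trend the upper group had a JQ-1 median of 0.35 and the lower group 0.21. By the start of the transcript, 27 of 46 subunit genes with an oligopyrimidine start rose with JQ-1, with a median of 0.21. Of 16 without such a start in these windows 14 rose, with a median of 0.25. That difference was not tested.

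The 24 subunit genes that were not called with JQ-1 had log2 fold changes between −0.12 and 0.19. Among them was RPL22, an RNA-binding large subunit protein that cells can lose, at 500, 433 and 489 CPM with JQ-1, against 490, 523 and 529 CPM in untreated cells. RPL21 had a value of −0.12, similar in size to that of RPL22, and in neither gene were the groups apart. RPS27 (0.16 ± 0.107), RPL39 (0.13 ± 0.103) and RPL36A (0.03 ± 0.089, all SE) were also not called, as were RPS29 and RPS21, whose replicates differed most.

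RPL22L1, the paralog of RPL22, fell most. Its level was 62.0, 55.8 and 60.7 CPM with JQ-1, against 76.4, 81.4 and 90.7 CPM in untreated cells, and 70.5 to 87.6 CPM with the other compounds. JQ-1 libraries were below all others. The log2 fold change was −0.48 ± 0.068 (SE, adjusted p = 1.2e-06, edgeR), with −0.32 after removal of the GC trend and −0.37 with the other compounds as comparator besides, and it was called in all 3 fits. As a share of the counts of RPL22 and RPL22L1 together, which does not depend on scaling between libraries, RPL22L1 made up 11, 11.4 and 11% with JQ-1, against 13.5, 13.5 and 14.6% in untreated cells. The 15 libraries of the other compounds held 13.3 to 15.1%. Groups of 3 cannot reach an exact permutation p under 0.1, so no call is made on shares.

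RPS27L, the paralog of RPS27 that p53 is known to induce, was at 134, 121 and 129 CPM with JQ-1, against 143, 154 and 168 CPM in untreated cells, and did not overlap. It fell by 0.28 ± 0.065 on the log2 scale (SE, adjusted p = 0.000551, edgeR), but was not called with the GC trend removed (−0.14, adjusted p = 0.0518, edgeR). Within the pair RPS27 and RPS27L it held 14.8, 16.5 and 14.7% of the counts with JQ-1, against 20.1, 19.1 and 19.8% in untreated cells. The share was also below all 3 untreated libraries with TP-472, GSK-484 and UNC0642, at 16.8 to 18.7%, and overlapped with GSK-591 and MS023. RPL26L1, the paralog of the exit-tunnel protein RPL26, was at 44.9, 37.7 and 39.9 CPM, against 46.0, 46.9 and 51.4 CPM. It fell by 0.23 ± 0.066 (SE, adjusted p = 0.00297, edgeR), and was not called when the GC trend was removed and the other compounds were the comparator (−0.09, adjusted p = 0.0936, edgeR). RPL26 itself rose by 0.21 ± 0.070 (SE, adjusted p = 0.0101, edgeR). RPL26L1 made up 3.71 ± 0.248% of the pair with JQ-1 and 4.99 ± 0.167% in untreated cells (SD, n = 3 each), and its share was below that of all 3 untreated libraries with each of the 6 compounds.

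**Figure D3:**
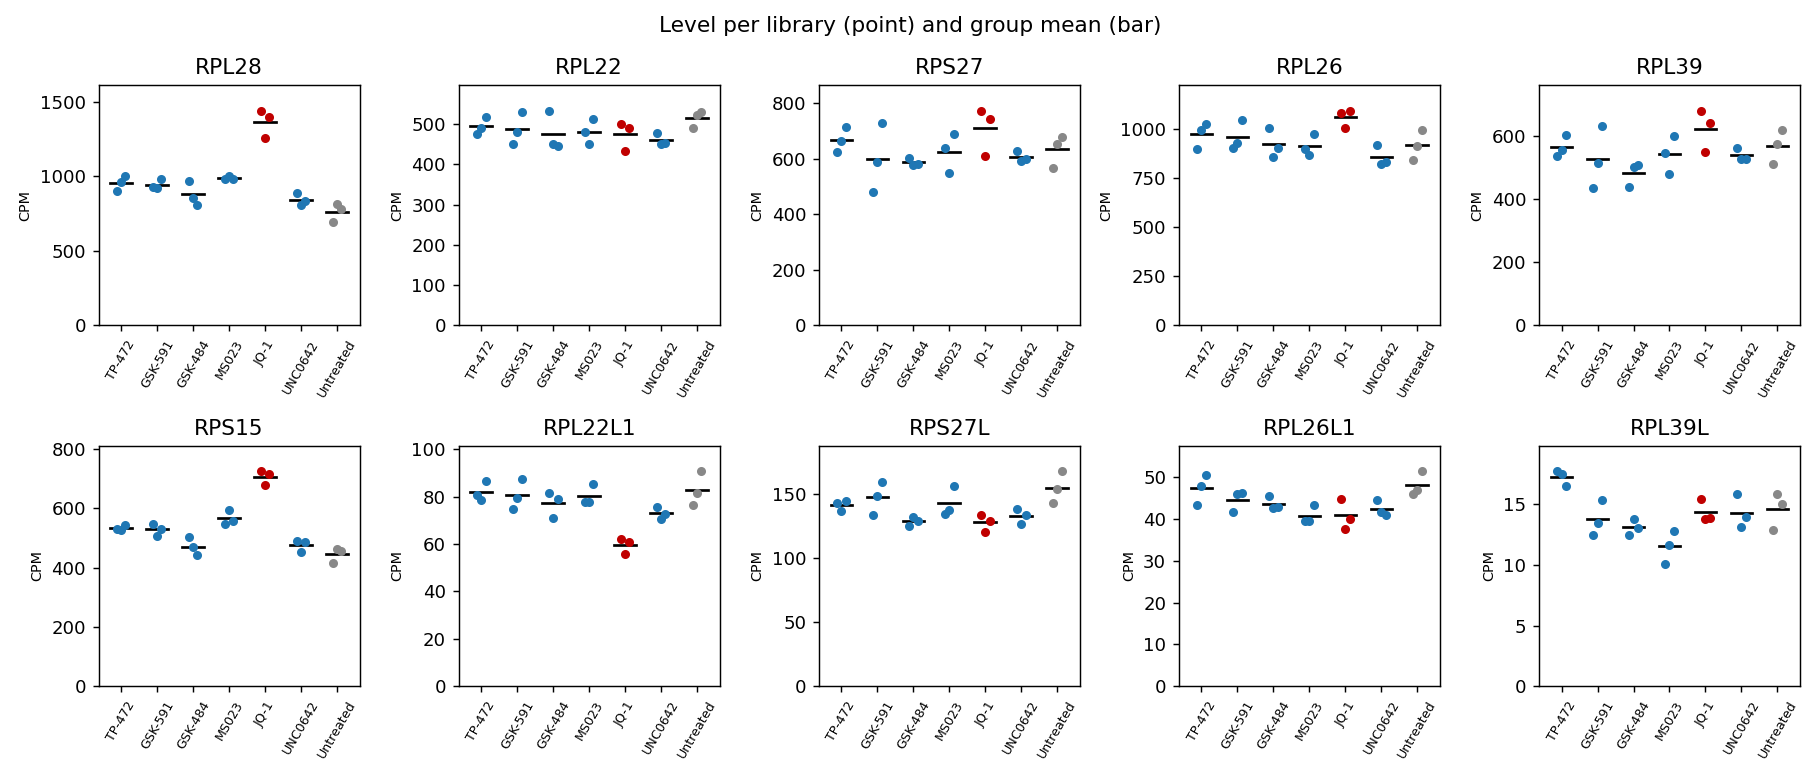
Level in CPM of 10 genes in each of the 21 libraries (points) with group means (bars); upper row RPL28 and 4 partners, lower row RPS15 and the paralogs RPL22L1, RPS27L, RPL26L1 and RPL39L. JQ-1 (red) lies above all other libraries for RPL28 and RPS15 and below all others for RPL22L1, where its highest library is at 62.0 CPM.

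RPL36AL, the paralog of the exit-site protein RPL36A, did not differ by call with any compound. Its log2 fold changes ran from −0.03 with MS023 to 0.11 with TP-472, and its share of the pair was 18.6 to 21.6% in compound libraries and 18.3 to 19.6% in untreated ones. The shares lay above all 3 untreated libraries with TP-472, GSK-591 and UNC0642. These shares depend on how RSEM divided shared reads. RPL39L, a form enriched in testis and in some tumours, moved with other compounds than JQ-1. Its level was 10.1, 11.6 and 12.8 CPM with MS023, against 12.9, 15.8 and 15 CPM in untreated cells, with no overlap. It fell with MS023 by 0.34 ± 0.093 on the log2 scale (SE, adjusted p = 0.00568, edgeR) and was called lower in all 3 fits. With TP-472 it was at 17.7, 17.5 and 16.5 CPM, above all untreated libraries. It rose by 0.25 ± 0.090 (SE, adjusted p = 0.0405, edgeR), a call that was lost with the GC trend removed (0.22, adjusted p = 0.116, edgeR) but made against the other treated groups (0.39, adjusted p = 0.00104, edgeR). As a share of RPL39 and RPL39L together, RPL39L held 1.82, 2.37 and 2.09% with MS023, against 2.45, 2.68 and 2.37% in untreated cells. These shares overlapped, as did those with TP-472 and untreated cells. Counts of both genes were fractional in all 21 libraries. RPL7L1, a relative of RPL7, fell with GSK-591 by 0.18 ± 0.052 (SE, adjusted p = 0.00903, edgeR), at 39.3, 41.0 and 38.6 CPM, against 44.9, 47.0 and 43.0 CPM in untreated cells. That call was lost with the GC trend removed (−0.12, adjusted p = 0.114, edgeR).

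The stalk of the large subunit, which recruits the elongation factors, is formed by RPLP0, RPLP1 and RPLP2. RPLP0 was at 3556, 3611 and 3533 CPM with JQ-1, against 2193, 2436 and 2602 CPM in untreated cells, and rose by 0.57 ± 0.045 (SE, adjusted p = 8.68e-11, edgeR). RPLP1 rose with JQ-1 by 0.45 ± 0.072 (SE, adjusted p = 8.39e-06, edgeR) and RPLP2 by 0.30 ± 0.077 (SE, adjusted p = 0.00141, edgeR); for RPLP2 the call was lost with the GC trend removed (0.10, adjusted p = 0.231, edgeR). RPLP1 and RPLP2 were not called with any other compound. RPLP0 also rose with TP-472, GSK-591, GSK-484 and MS023, by 0.16 to 0.28. With GSK-484 the call was lost once the GC trend was removed (0.11, adjusted p = 0.193, edgeR), and against the other treated groups the value was −0.06 (adjusted p = 0.467, edgeR). With TP-472, GSK-591 and MS023 it was 0.07 to 0.08 against the other treated groups and not called.

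RPL5 and RPL11, which form the 5S particle and bind MDM2, both rose with JQ-1. RPL5 was at 875, 853 and 849 CPM with JQ-1, against 677, 726 and 783 CPM in untreated cells, a log2 fold change of 0.24 ± 0.045 (SE, adjusted p = 6.44e-05, edgeR). RPL11 was at 1150, 963 and 1132 CPM, against 785, 923 and 895 CPM, with 0.32 ± 0.079 (SE, adjusted p = 0.00101, edgeR). In both genes the JQ-1 and untreated libraries did not overlap. With GSK-591 RPL5 rose as well, by 0.14 ± 0.045 (SE, adjusted p = 0.022, edgeR). There it was at 763, 793 and 851 CPM, which overlapped with untreated cells. RPSA, a small subunit protein also known as the laminin receptor, rose with JQ-1 by 0.40 ± 0.052 (SE, adjusted p = 3.01e-07, edgeR). RPL3 and RPL10, which lie near the catalytic centre and are the partners of the barely detected RPL3L and RPL10L, rose with JQ-1 by 0.24 ± 0.040 and 0.49 ± 0.047 (SE, adjusted p = 1.52e-05 and 1.9e-09, edgeR).

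RPS2 and RPS10 are substrates of arginine methyltransferases, RPS2 of PRMT3 and RPS10 of PRMT5. RPS2 was at 2482, 2698 and 2502 CPM with the type I inhibitor MS023, against 1963, 2214 and 2301 CPM in untreated cells. It rose with MS023 by 0.25 ± 0.057 (SE, adjusted p = 0.00141, edgeR), but the value was −0.01 with the GC trend removed. RPS10 was at 1103, 1039 and 1117 CPM with the PRMT5 inhibitor GSK-591, against 832, 934 and 992 CPM. It rose with GSK-591 by 0.24 ± 0.057 (SE, adjusted p = 0.00266, edgeR), was still called with the GC trend removed (0.17, adjusted p = 0.0322, edgeR), and had 0.08 against the other treated groups with the trend removed (adjusted p = 0.259, edgeR). RPS2 was also called higher with TP-472 and GSK-591, and RPS10 with TP-472, GSK-484 and MS023. RPS2 was at 2587, 2401 and 2479 CPM with GSK-591, and RPS10 at 1017, 1067 and 1075 CPM with MS023. The rises were thus not confined to the inhibitor of the enzyme named. The values with JQ-1 were larger for both, at 0.59 ± 0.057 for RPS2 and 0.40 ± 0.057 for RPS10 (SE), and the difference between compounds was not tested for these genes alone.

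TP-472 raised 30 of the 83 members and lowered 0, with a median log2 fold change of 0.10, where 17.3% of all genes tested were called higher and 14.5% lower. Without adjustment, 2 members had a p under 0.05 on the lower side, and DESeq2 also called 0 lower. RPL28 had the largest rise, 0.32 ± 0.063 (SE, adjusted p = 0.000651, edgeR), at 903, 960 and 1004 CPM with TP-472, against 693, 814 and 784 CPM in untreated cells, without overlap. RPL18, a large subunit protein, rose by 0.32 with TP-472. For 26 members all TP-472 libraries lay above the untreated ones and for 2 below, beside 23.4% and 18.5% of all genes. The rises numbered 14 without untreated replicate 1 and 16 without TP-472 replicate 3. Once the GC trend was removed 13 members rose and 0 fell, beside 5.28% and 6.8% of all genes, and with the length trend removed too 16 rose and 1 fell, beside 5.64% and 6.99%. Against the other treated groups RPL39L was the 1 member called, as a rise, beside 3.9% of all genes higher and 4.7% lower. The count was again 1 rise and 0 falls with the GC trend removed, beside 4.74% and 6.58%, and with the length trend removed too, beside 4.97% and 6.21%.

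GSK-591 raised 30 and lowered 3 members, with a median of 0.07, where 18.1% of all genes tested were called higher and 14.8% lower. RPL18 had the largest rise, at 1134, 1067 and 1085 CPM with GSK-591, against 748, 866 and 896 CPM in untreated cells. Every GSK-591 library was above every untreated library. The log2 fold change was 0.39 ± 0.061 (SE, adjusted p = 8.8e-05, edgeR), and RPL28 rose by 0.31 with GSK-591. For 26 members all GSK-591 libraries lay above the untreated ones and for 2 below, beside 22.8% and 19.2% of all genes. The number of rises was 16 without untreated replicate 1 and 15 with total-count scaling, under which the members' median was −6e-04 and so changed sign. Removal of the GC trend left 17 rises and 2 falls, beside 7.62% and 5.9% of all genes, and with the length trend removed too 28 rose and 2 fell, beside 8.29% and 6.83%. Against the other treated groups 2 members were higher and 0 lower, beside 4.24% and 3.31%. In that comparison the counts with the GC trend removed were 5 and 1, beside 5.93% and 4.47%, and with the length trend removed too 14 and 1, beside 7.09% and 5.23%. Among the rises called in all 3 fits were RPL18, RPL10, RPL14 and RPL4, of which RPL14 and RPL4, an exit-tunnel protein, are named here after their values were seen. RPL4 was at 3124, 3153 and 3207 CPM with GSK-591, against 2609, 2792 and 2927 CPM in untreated cells, with a log2 fold change of 0.19 ± 0.035 (SE, adjusted p = 0.000379, edgeR).

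MS023 raised 29 and lowered 2 members, with a median of 0.06, where 22% of all genes tested were called higher and 20.6% lower. RPS9, a small subunit protein known for its part in decoding accuracy, was at 897, 946 and 905 CPM with MS023, against 638, 737 and 735 CPM in untreated cells, without overlap. It rose by 0.38 ± 0.065 (SE, adjusted p = 6.54e-05, edgeR) and was followed by RPL28 and RPS15, with 0.37 and 0.35. The falls were RPL39L, described above, and RPL26L1, which fell by 0.24 ± 0.065 (SE, adjusted p = 0.0055, edgeR) and was not called with the GC trend removed (−0.18, adjusted p = 0.0511, edgeR). For 29 members all MS023 libraries lay above the untreated ones and for 2 below, beside 25.6% and 23.2% of all genes. Total-count scaling left 19 rises, and the fit without untreated replicate 1 also left 19. With the GC trend removed 16 members rose and 2 fell, beside 8.72% and 8.15% of all genes, and with the length trend removed too 32 rose and 5 fell, beside 10.4% and 9.53%. Against the other treated groups 8 members were higher and 1 lower, beside 9.86% and 9%. The counts there were 2 and 1 with the GC trend removed, beside 6.69% and 6.63%, and 16 and 2 with the length trend removed too, beside 8.58% and 7.99%. RPL15, named here after its values were seen and with fractional counts in 15 libraries, was the 1 member higher in all 3 fits, with 0.12 ± 0.040 against untreated cells (SE, adjusted p = 0.0202, edgeR).

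GSK-484 raised 7 and lowered 3 members, with a median of −0.01, where 11.4% of all genes tested were called higher and 7.66% lower. The largest rises were RPL18 (0.26), RPS19 (0.22), which is mutated in Diamond-Blackfan anaemia, RPL28 (0.20) and RPS10 (0.18). RPS29 and RPS21, small proteins of the small subunit, and RPS27L fell by 0.61 ± 0.177, 0.37 ± 0.115 and 0.27 ± 0.064 (SE, adjusted p = 0.0201, 0.0296 and 0.00784, edgeR). All GSK-484 libraries lay above the untreated ones for 3 members and below them for 7, beside 16.3% and 11.3% of all genes. With the GC trend removed 0 members were called in either direction by edgeR, beside 0.644% of all genes higher and 0.558% lower; at an unadjusted p under 0.05 there were 11 higher and 12 lower. With the length trend removed too, 11 rose and 4 fell, beside 1.3% and 1.46%. Against the other treated groups 0 members were called, beside 0.0929% and 0.0332% of all genes, and with the GC trend removed again 0, beside 0.146% and 0.0598%; without adjustment 0 were higher and 21 lower in the first of these fits and 0 and 24 in the second. With both trends removed 0 were higher and 6 lower, beside 0.465% and 0.538%. Without untreated replicate 1 there were 0 rises and 6 falls, and without GSK-484 replicate 1 there was 1 rise.

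UNC0642 raised 0 and lowered 2 members against untreated cells, with a median of −0.04, where 8.71% of all genes tested were called higher and 7.54% lower. The falls were RPS21, by 0.34 ± 0.115, and RPS27L, by 0.22 ± 0.064 (SE, adjusted p = 0.0449 and 0.0214, edgeR). At an unadjusted p under 0.05 there were 2 higher and 16 lower, and DESeq2 called 0 higher and 4 lower. All UNC0642 libraries lay above the untreated ones for 0 members and below them for 9, beside 17.8% and 16% of all genes. Neither fall was called with the GC trend removed, where edgeR called 0 members, beside 1.3% and 1.87% of all genes, with 1 higher and 12 lower at an unadjusted p under 0.05. With the length trend removed too 2 rose and 1 fell, beside 1.55% and 2.3%, and without untreated replicate 1 the number of falls was 7. The comparison with the other treated groups gave another picture. There 34 members were lower with UNC0642 and 1 was higher, beside 13.3% and 14.2% of all genes, with a median of −0.12. The counts were again 34 and 1 with the GC trend removed, beside 12.5% and 13.8% of all genes, and 26 and 1 when the trend with transcript length was removed too, beside 8.94% and 9.33%.

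RPL7A, one of the 3 highest members by level per length, was among the lowest by this comparison. It was at 2477, 2344 and 2315 CPM with UNC0642, whereas the 12 libraries of TP-472, GSK-591, GSK-484 and MS023 lay between 2564 and 3096 CPM, and untreated cells were at 2302, 2469 and 2589 CPM. The UNC0642 libraries were below all 12 and overlapped with the untreated ones. The log2 fold change against the 12 was −0.22 ± 0.043 (SE, adjusted p = 0.000873, edgeR), and against untreated cells −0.04 ± 0.053. RPL18 had −0.23 and RPL13 −0.22 against the 12. RPL7L1 was the 1 member called higher, with 0.19 (adjusted p = 0.0014, edgeR). Slopes with each doubling of transcript length were taken, like those for GC content, on deviations from each gene's mean over all 21 libraries. They were 0.0249 to 0.0731 in UNC0642 libraries, against −0.0476 to 0.0227 in the 12. Untreated replicates 1, 2 and 3 had 0.0769, 0.023 and −0.0098. Members are short, with a median annotated length of 750.5 nt against 2480.5 nt for all genes tested. The part of the length trend in the falls was not tested beyond the fit with its removal.

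Some members varied more between replicates than others. The within-group SD of log2(CPM + 1) had a median of 0.0916 over the 83 members and ran from 0.0405 for RPL4 to 0.27 for RPS29, with 8 genes over 0.15. Spearman's rho between this SD and annotated transcript length was −0.453 (n = 83, across genes that share libraries). RPS29, a zinc-binding protein of the small subunit head, was at 131, 165 and 235 CPM with GSK-591, against 248, 294 and 288 CPM in untreated cells. The groups did not overlap, but the GSK-591 libraries spread widely. It fell with GSK-591 by 0.64 ± 0.178 (SE, adjusted p = 0.00837, edgeR), and was not called against the other treated groups (−0.21, adjusted p = 0.413, edgeR). RPS21 fell with GSK-591 by 0.38 ± 0.116 (SE, adjusted p = 0.0142, edgeR), at 374, 414 and 500 CPM, against 496, 600 and 585 CPM, so that a single GSK-591 library overlapped. It too was not called against the other treated groups (−0.09, adjusted p = 0.601, edgeR).

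**Figure D4:**
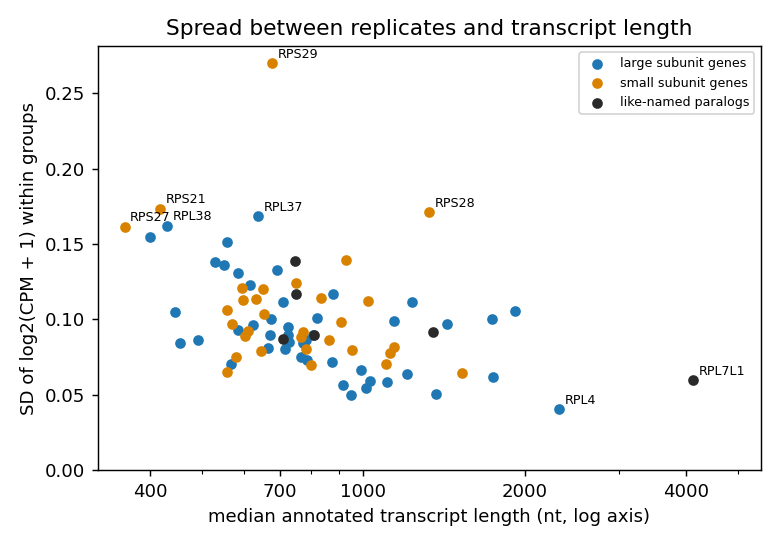
SD of log2(CPM + 1) within groups (vertical) against median annotated transcript length in nt (horizontal, log axis) for the 83 tested members, with the class given by colour. RPS29 has the largest SD, 0.27, and RPL4 the smallest, 0.0405.

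Other genes of the translation machinery were counted from lists fixed for this purpose. With JQ-1, where 35.7% of all genes tested were called higher and 37.6% lower, 5 of 10 elongation factors rose and 3 fell. The number of elongation factors that rose was also 5 with TP-472, GSK-591, GSK-484 and MS023, and 3 with UNC0642. All genes had 17.3%, 18.1%, 11.4%, 22% and 8.71%. In that order, with the GC trend removed, 1, 3, 0, 3 and 0 rose, beside 5.28%, 7.62%, 0.644%, 8.72% and 1.3%. Falls there were 0, 2, 1, 1 and 1, beside 6.8%, 5.9%, 0.558%, 8.15% and 1.87%. With the other treated groups as comparator too, 1, 1, 0, 1 and 0 rose, beside 4.74%, 5.93%, 0.146%, 6.69% and 13.8%. In that fit 1, 0, 0, 1 and 4 fell, beside 6.58%, 4.47%, 0.0598%, 6.63% and 12.5%. EEF2, which moves the ribosome along the message, averaged 5913 ± 50 CPM with JQ-1 and 3093 ± 126 CPM in untreated cells (SD, n = 3 each), a rise of 0.94 ± 0.039 (SE, adjusted p = 7.63e-16, edgeR), and 0.78 with the GC trend removed. EEFSEC, the selenocysteine-specific factor, and EEF1D, a nucleotide exchange subunit for EEF1A, rose by 1.26 ± 0.065 and 0.90 ± 0.060 (SE). EEF1A2, the muscle and neuronal form, fell by 0.52 ± 0.050 (SE, adjusted p = 2.57e-09, edgeR). Of the 31 initiation factors 11 rose and 8 fell with JQ-1, a share of rises near the 35.7% of all genes.

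Of 6 further genes whose messages have an oligopyrimidine start, 2 rose and 2 fell with JQ-1, again near the 35.7% and 37.6% of all genes. PABPC1, the poly-A binding protein, rose by 0.35 ± 0.027, and HNRNPA1, a splicing regulator, fell by 0.64 ± 0.046 (SE, adjusted p = 3.86e-11 and 1.4e-11, edgeR). Among 11 regulators of the oligopyrimidine messages 6 rose and 3 fell, beside the same 35.7% and 37.6%. EIF4EBP2, which holds back the cap-binding protein EIF4E, averaged 103 ± 2.7 CPM with JQ-1 and 56.6 ± 4.84 CPM in untreated cells, and RPTOR, the mTOR complex subunit that binds substrates, averaged 38.8 ± 1.96 CPM with JQ-1 and 73.9 ± 4.54 CPM in untreated cells (SD, n = 3 each). EIF4EBP2 rose by 0.87 ± 0.053 and RPTOR fell by 0.93 ± 0.055 (SE, adjusted p = 7.46e-13 and 4.13e-13, edgeR). Of 9 chaperones and modifiers of ribosomal proteins 3 rose and 2 fell, with rises near the 35.7% of all genes, and HEATR3, which brings RPL5 into the nucleus, rose by 0.98 ± 0.065 (SE, adjusted p = 2.85e-12, edgeR). PRMT3, which methylates RPS2, fell with MS023 by 0.39 ± 0.053 (SE, adjusted p = 5.58e-06, edgeR), and by 0.22 with the GC trend removed.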

How the data were processed

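RNA was measured in 21 poly-A selected libraries. The authors deposited expected counts per gene without scaling. The submitters' processing notes name Bowtie2 2.1.0, RSEM 1.2.15 and build hg38; annotation and read filters were not found in the sources.

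After rounding, genes were kept by filterByExpr (at least 10 counts, total 15) in edgeR 4.0.16, scaled by TMM and fitted with group as the only term over 21 libraries. The edgeR quasi-likelihood test, two-sided, compared every compound with untreated cells, with Benjamini-Hochberg adjustment over 15062 genes and a prior count of 0.125 for fold changes. The members and lists were chosen with earlier results of these data known. Genes were named by rule: per compound up to 4 called members with the largest and up to 4 with the smallest fold change, the paralogs with their partners, the stalk and 5S particle genes, RPSA, RPS2 and RPS10, and the 3 highest and 3 lowest by level per length; some genes that this rule or the lists name are not reported here.

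For the trends, log2 CPM (prior count 2) was taken as the deviation from each gene's mean over all libraries. GC and length trends were removed per library by loess of these deviations (span 0.3, 4 iterations) on median GC content and length. Both came from protein-coding GENCODE 29 transcripts and were known for 14108 tested genes. Other alternatives were DESeq2 1.42.0, RLE and total-count scaling, TMM factors without the members, no filter, a replicate block, the other treated groups as comparator and leaving out each library. Replicates differed by more than sampling noise: chi-square per degree of freedom was 3.52 to 59.9 over 21 pairs. The fits against untreated cells, with and without removal of trends, were run on simulated data for JQ-1 only. The simulated counts carried no GC or length trend, so they cannot show how well such trends were removed. Promoter sequences came from RefSeq on GRCh38.p14, matched by symbol for 68 of 85 members. R 4.3.3, Python 3.11.15, pandas 2.3.3 and matplotlib 3.10.9 were used.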

Additional observations from a re-analysis of the deposited data

How the results depend on the processing

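Counts below are members called higher, then lower, of 83, against untreated cells unless stated; the cause of each change was not tested. With the GC trend removed TP-472 gave 13 rises, GSK-591 17, GSK-484 0 and 0 falls, MS023 16 and UNC0642 0 falls. With GC and length trends removed TP-472 gave 16 and 1, GSK-484 11 rises, MS023 5 falls, JQ-1 6 falls and UNC0642 2 and 1. With the other treated groups as comparator TP-472 gave 1 rise, GSK-591 2 and 0, GSK-484 0 and 0, MS023 8 and 1, and UNC0642 1 and 34; with the GC trend removed as well 1, 5 and 1, 0 and 0, 2 and 1, and 1 and 34 in the same order; and with both trends removed, chosen after seeing the data, TP-472 1 rise, GSK-591 14 and 1, GSK-484 0 and 6, MS023 16 rises, JQ-1 5 falls and UNC0642 1 and 26. Total-count scaling gave GSK-591 15 rises, GSK-484 1 and 5, MS023 19 and 5, JQ-1 32 and 7 and UNC0642 8 falls. DESeq2 called 6 falls with GSK-484 and 4 with UNC0642, RLE scaling 5 with GSK-484, and no filter on low counts 2 falls with TP-472, 11 with GSK-484, 4 with MS023, 5 with JQ-1 and 9 with UNC0642. Leaving out each library gave rises of 14 to 36 and falls of 0 to 0 with TP-472, 16 to 34 and 1 to 6 with GSK-591, 0 to 14 and 1 to 6 with GSK-484, 19 to 35 and 2 to 3 with MS023, 44 to 57 and 3 to 4 with JQ-1, and 0 to 2 and 0 to 7 with UNC0642. Median log2 fold changes then ran from 0.0444 to 0.1448, −0.001 to 0.1087, −0.071 to 0.037, 0.0067 to 0.1094, 0.1637 to 0.277 and −0.0997 to 0.0077 for the same compounds. Falls with GSK-591 numbered 1 without GSK-591 replicate 1 and 6 without replicate 3, rises with GSK-484 14 without untreated replicate 3, 11 without GSK-484 replicate 3 and 1 without GSK-484 replicate 1. Deviations of same-numbered compound and untreated libraries correlated at −0.125 to 0.115, and those of differently numbered ones at −0.14 to 0.139. With 3 libraries a group this cannot show whether the numbers pair samples. A replicate block gave 30 and 0, 29 and 3, 5 and 4, 31 and 2, 53 and 3, and 0 and 3. Log2 fold changes that changed sign were, with TP-472, RPL28 −0.0064, RPL18 −0.0252, RPL10 −0.007, RPSA −0.0039 and RPL7A −0.031 (other groups, both trends removed), RPL3 −0.0302 (both trends), −8e-04 (other groups, GC) and −0.0426 (other groups, both), and RPS2 −0.0045 (GC), −0.0494 (both) and −0.0145 (other groups, both). With GSK-484 they were RPL18 −0.0237, RPS19 −0.0204, RPL28 −0.0847 and RPLP0 −0.0648 (other groups), RPL28 −0.062 and RPLP0 −0.0561 (other groups, GC) and −0.0571 and −0.0559 (other groups, both). With MS023 they were RPS2 −0.0052 (GC) and −0.0101 (both) and RPS10 −0.0034 (other groups, both), and with UNC0642 RPS21 0.0183 (other groups, both). Among 74 calls on named genes, 72 kept direction and call under DESeq2 and RLE, 55 under total-count scaling, 40 with the GC trend removed and 27 against the other treated groups, and in the fits without 1 library 379 values kept both and 65 lost the call. Replicates differed by more than sampling noise in every library pair, but this was not computed for the named genes alone. Whether counting precision limits the calls on the named genes with low counts was not tested.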
